A study of Rattus norvegicus with 12 samples.

Results

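The genes described here are *Emp1*, *S100a10*, *Tm4sf1*, *Ptx3* and *Clcf1*, 5 genes that are used to mark the A2 form of reactive astrocytes (ASTRs), out of 17941 genes in the deposited count table. They were chosen by name, and all 5 could be paired with an Ensembl identifier, 4 of them through gene sheets that favour genes with a large fold change. Their transcripts were counted in cultures of adult ASTRs that were grown from the cerebral cortex (gmASTRs, 6 libraries) or from non-cortical brain tissue (wmASTRs, 6 libraries), to ask how the marker genes differ with the region of origin. All cultures came from brains of young adult female Wistar rats, received no treatment, were passaged with trypsin and were harvested after 20 days. For gmASTRs the meninges had been stripped from the cortex. The wmASTR cultures are mainly of white matter origin, such as the corpus callosum, but their starting tissue also held hippocampus, thalamus and basal ganglia, so the wmASTR group contains some ASTRs of deep grey matter.

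ASTRs that respond to injury or inflammation are called reactive. In rodents, a form that follows inflammatory stimulation has been called A1 and is regarded as neurotoxic, whereas a form that follows ischemia has been called A2 and is regarded as protective, with genes for trophic and repair functions. *Emp1* encodes a small membrane-spanning protein of the PMP22 family, and *Tm4sf1* a surface protein with 4 membrane-spanning segments that is also known from endothelial and tumor cells. *S100a10* encodes p11, which binds annexin A2 at the plasma membrane. *Ptx3* encodes a secreted long pentraxin that is made at sites of inflammation, and *Clcf1* a cytokine that signals through gp130 and STAT3.

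Total counts ranged from 4920488 to 6356487 in gmASTR and from 5363330 to 7207118 in wmASTR libraries. A floor of 3 counts equals 0.416 to 0.610 CPM, a count scaled to the total of its library, depending on the library. CPM values are given as mean ± SD (n = 6). Libraries were made from the 3′ end of transcripts, and levels are compared here between libraries and not between genes. A log2 fold change (log2FC) above 0 stands for more transcript in gmASTRs. It was tested with edgeR's quasi-likelihood test over the 9394 genes that the authors kept after filtering on low counts, with Benjamini-Hochberg adjustment (FDR, threshold 0.05). In bulk RNA, fewer cells of one type and less RNA per cell cannot be told apart. In these counts the ASTR label was only partly met by the defining markers that could be named. The paper also reports GFAP protein in both kinds of culture and a high abundance of most ASTR transcripts, such as *Vim*. Of 11 ASTR markers 5 had an identifier, of which *Gja1*, the gene of connexin 43, had 4789 ± 627 CPM in gmASTRs, compared with 4366 ± 1241 CPM in wmASTRs, while *Gfap* had no count in the gmASTR libraries and 8 to 60 counts in the wmASTR libraries, and *Aqp4* had at most 4 counts in a gmASTR library. *Slc1a3*, a glutamate transporter, had 8.21 ± 4.03 CPM in gmASTRs, compared with 21.3 ± 8.46 CPM in wmASTRs (log2FC -1.43, edgeR quasi-likelihood FDR = 0.0158), and *Aldoc* had 20.8 ± 7.26 and 12.7 ± 4.77 CPM (log2FC 0.64, FDR = 0.167). Thus 3 of these 5 markers, *Gfap*, *Aqp4* and *Slc1a3*, were called higher in wmASTRs and none in gmASTRs. Towards wmASTRs, 6.69% of the filtered table and 4.28% of the 15478 genes with at least 1 count, among which *Gfap* and *Aqp4* were tested, were called.

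*Emp1*, *S100a10* and *Tm4sf1* were more abundantly expressed in gmASTRs, whereas for *Ptx3* and *Clcf1* no difference was detected. Thus 3 of the 4 genes present in the filtered table were higher in gmASTRs with an FDR under 0.05, where 5.64% of all genes in that table were. For these 3 genes all gmASTR libraries lay above all wmASTR libraries, which was the case for 2.69% of the table. The identifiers of the 4 genes came from sheets that favour genes high in fold change towards gmASTRs. Both counts are therefore partly set by how the genes could be named. Of the 9 A2-specific genes of the study in the filtered table, 3 were called towards gmASTRs and 1 towards wmASTRs. Of all genes in the filtered table, edgeR's quasi-likelihood test called 530 towards gmASTRs and 628 towards wmASTRs, but 691 and 533, respectively, without TMM scaling. With every scaling tried, the 3 genes stayed higher in gmASTRs. Their size of difference was not alike, with the largest for *Tm4sf1*, an intermediate one for *Emp1* and the smallest for *S100a10*.

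**Figure D1:**
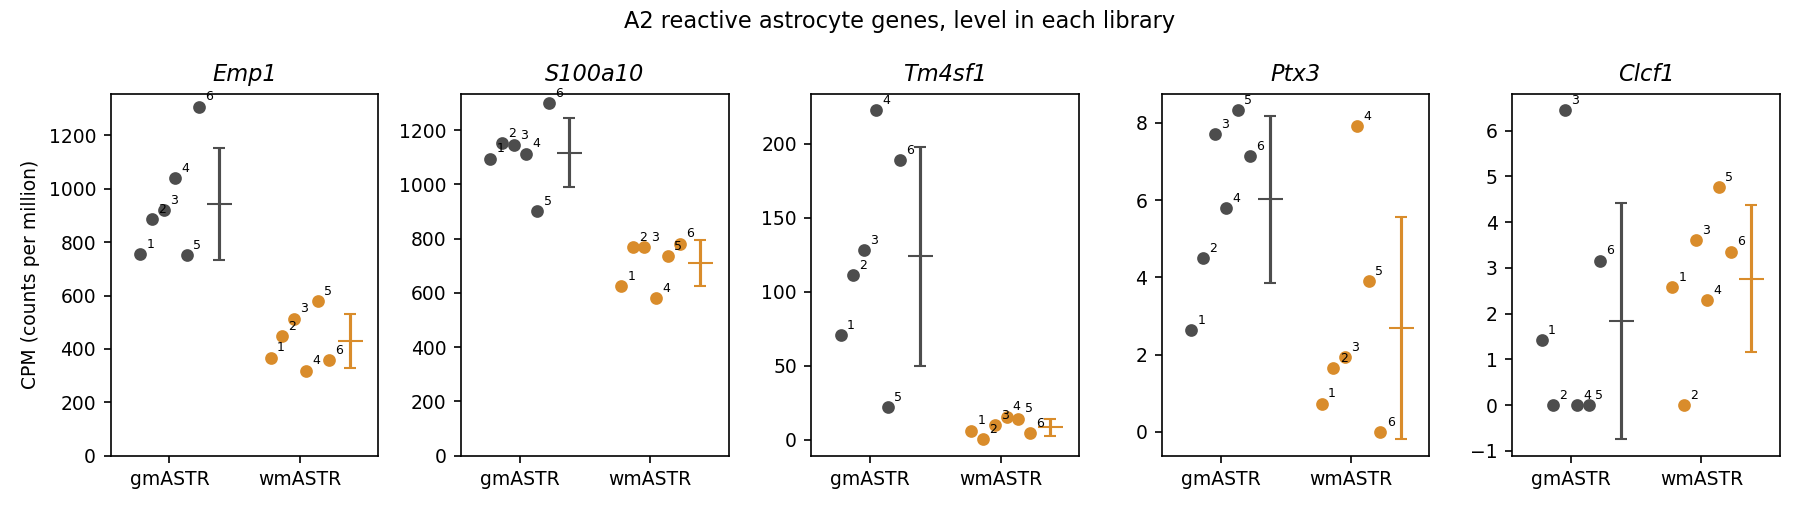
Level of each gene (CPM, linear vertical axis, a separate scale for each gene) in the 6 gmASTR and 6 wmASTR libraries. Points are libraries with their replicate number, the horizontal tick and whiskers are mean ± SD, and the groups are apart for *Emp1*, *S100a10* and *Tm4sf1* but overlap for *Ptx3* and *Clcf1*.

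For the genes that rose in gmASTRs, the sequence around the annotated transcription start was read to show which short motifs lie there. Promoter windows of 250 bases before to 50 bases after the start were found in RefSeq (rat assembly GRCr8) for *Emp1*, *Tm4sf1* and *Ptx3*, but not for *S100a10* and *Clcf1*. Motifs were searched on both strands, namely the AP-1 letters TGANTCA, the STAT letters TTCNNNGAA, the TEAD letters GGAATG and the TATA letters TATAAA. In the sequences below, printed 5′ to 3′ on the strand of the gene, capitals mark a match. The *Emp1* window lies at chr4:169943980-169944279 (plus strand) around a start site that is inside the bounds of the gene in that assembly, and the *Tm4sf1* window at chr2:143616127-143616426 (minus strand) around the first base of the gene.
Emp1: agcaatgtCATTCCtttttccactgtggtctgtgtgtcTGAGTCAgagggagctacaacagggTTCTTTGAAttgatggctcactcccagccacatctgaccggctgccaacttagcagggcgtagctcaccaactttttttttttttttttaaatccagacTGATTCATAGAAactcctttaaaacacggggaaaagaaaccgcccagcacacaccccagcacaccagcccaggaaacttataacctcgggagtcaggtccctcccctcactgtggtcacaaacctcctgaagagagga
Tm4sf1: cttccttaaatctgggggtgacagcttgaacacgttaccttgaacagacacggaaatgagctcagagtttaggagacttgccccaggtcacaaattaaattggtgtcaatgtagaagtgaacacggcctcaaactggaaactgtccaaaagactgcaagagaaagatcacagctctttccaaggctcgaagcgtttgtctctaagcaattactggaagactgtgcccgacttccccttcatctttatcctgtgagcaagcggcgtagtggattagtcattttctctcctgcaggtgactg
The *Emp1* window held 2 AP-1 matches, at positions -212 and -88 from the start site, 2 STAT matches, at -187 and -85, and 1 TEAD match on the opposite strand at -242. The second AP-1 match and the second STAT match overlap and appear as one run of capitals. AP-1 letters were found in 7.33% of 33469 rat promoter windows of this length, STAT letters in 8.87% and TEAD letters in 14.2%. None of the 4 motifs was found in the windows of *Tm4sf1* and *Ptx3*, which says only that these letters are not in these 300 bases. A match is a description of the sequence, and binding was not measured in these cultures.

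*Tm4sf1* (ENSRNOG00000015812) differed most. In gmASTR libraries it was measured at 22.4 CPM in the lowest, 120 CPM in the median and 223 CPM in the highest library, and in wmASTR libraries at 0.499, 8.13 and 15.7 CPM. The lowest gmASTR library, replicate 5, thus lay above the highest wmASTR library, replicate 4, although the gmASTR libraries themselves spread over a wide range. In counts these are 118 to 1153 reads per gmASTR library and 3 to 99 reads per wmASTR library. The mean was 124 ± 73.9 CPM in gmASTRs, compared with 8.57 ± 5.85 CPM in wmASTRs, with a log2FC of 3.76 (SE 0.52, 95% interval 2.67 to 4.86, edgeR quasi-likelihood FDR = 0.000152). In the order of log2FC towards gmASTRs, *Tm4sf1* was number 4 of the 9394 genes. Omitting any single library left the log2FC between 3.51 and 4.01.

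*Emp1* (ENSRNOG00000008676) was measured at 753 CPM in the lowest, 903 CPM in the median and 1308 CPM in the highest gmASTR library. In wmASTRs the lowest, median and highest values were 319, 408 and 580 CPM. All gmASTR libraries were higher than the highest wmASTR library, replicate 5. The means were 944 ± 209 CPM in gmASTRs, compared with 431 ± 101 CPM in wmASTRs. In the edgeR fit with TMM scaling the difference was 2.10-fold (95% interval 1.69 to 2.60, log2FC 1.07, SE 0.15, edgeR quasi-likelihood FDR = 0.000152). Relative to the mean, libraries spread alike in both groups, with a coefficient of variation of 22.1% in gmASTRs and 23.5% in wmASTRs.

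*S100a10* (ENSRNOG00000023226) showed the smallest difference of the 3 genes. It was measured at 902, 1129 and 1299 CPM in the lowest, median and highest gmASTR library and at 582, 751 and 782 CPM in wmASTRs. Here too the libraries of the groups did not overlap, and replicate 5 was again the lowest gmASTR library. The means were 1117 ± 128 CPM in gmASTRs, compared with 710 ± 85.2 CPM in wmASTRs, with a log2FC of 0.59 (SE 0.10, 95% interval 0.37 to 0.80, edgeR quasi-likelihood FDR = 0.000885). The coefficients of variation were 11.5% in gmASTRs and 12.0% in wmASTRs. For *Tm4sf1*, *Emp1* and *S100a10*, the exact permutation test on log2(CPM + 1) gave p = 0.00216 each (two-sided, 6 libraries against 6), the smallest p that this design allows.

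*Ptx3* (ENSRNOG00000012280) was a gene of low abundance. Its level was 2.64 CPM in the lowest, 6.47 CPM in the median and 8.34 CPM in the highest gmASTR library, and in wmASTRs it was 0, 1.80 and 7.92 CPM. All 6 gmASTR libraries lay above the median of the wmASTRs, but the groups overlapped, as wmASTR replicates 4 (7.92 CPM) and 5 (3.90 CPM) lay within the range of the gmASTRs. In counts, gmASTR libraries had 13 to 49 reads and wmASTR libraries 0 to 45. The log2FC of 1.09 (SE 0.66) had a 95% interval from -0.30 to 2.48 and did not pass the threshold (edgeR quasi-likelihood FDR = 0.336, unadjusted p = 0.118). An exact permutation test of the single gene on log2(CPM + 1) gave p = 0.0346 (two-sided, 6 against 6), which is not adjusted for the number of genes. Without wmASTR replicate 4 the log2FC was 1.79, with an FDR of 0.0996.

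*Clcf1* (ENSRNOG00000018752) was counted so rarely that it was not part of the filtered table, and it was therefore tested among the 15478 genes with at least 1 count, where 3.46% of genes passed the threshold towards gmASTRs and 4.28% towards wmASTRs. In gmASTRs it had no count in 3 libraries and 7, 19 and 41 counts in the others. In wmASTRs there was 1 library without a count, and the other 5 had 13 to 33 counts. The lowest, median and highest levels were 0, 0.711 and 6.45 CPM in gmASTRs and 0, 2.97 and 4.77 CPM in wmASTRs. Both groups thus held libraries at 0, and the single highest library was a gmASTR library. Means were 1.84 ± 2.58 CPM in gmASTRs, compared with 2.77 ± 1.61 CPM in wmASTRs, and the log2FC of -0.66 (SE 1.08, edgeR quasi-likelihood FDR = 0.774) had a 95% interval from -2.89 to 1.57. As a ratio of gmASTRs to wmASTRs this interval spans 0.135 to 2.97, which includes differences in either direction.

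To assess whether the 3 genes that rose differed from each other in the size of the change, the ratio of a pair of genes was taken within each library as the difference of log2(CPM + 1) and compared between the groups. The log2 ratio of *Tm4sf1* to *Emp1* was -3.20 ± 0.96 in gmASTRs and -5.82 ± 1.32 in wmASTRs, a shift of 2.62 (exact permutation test, two-sided, n = 6 and 6, p = 0.00433). Relative to *S100a10*, *Tm4sf1* shifted by 3.10 (exact permutation test, p = 0.00433). *Emp1* shifted relative to *S100a10* by 0.48, from -0.74 ± 0.27 in wmASTRs to -0.26 ± 0.20 in gmASTRs (exact permutation test, p = 0.00649). In each of the 3 pairs the groups overlapped. For both ratios of *Tm4sf1* only gmASTR replicate 5 and wmASTR replicate 4 crossed, with log2 ratios to *Emp1* of -5.01 and -4.26, respectively. Each shift exceeded the SD within either group but not the whole range of the wmASTR libraries, and these p-values were not adjusted for the number of pairs.

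**Figure D2:**
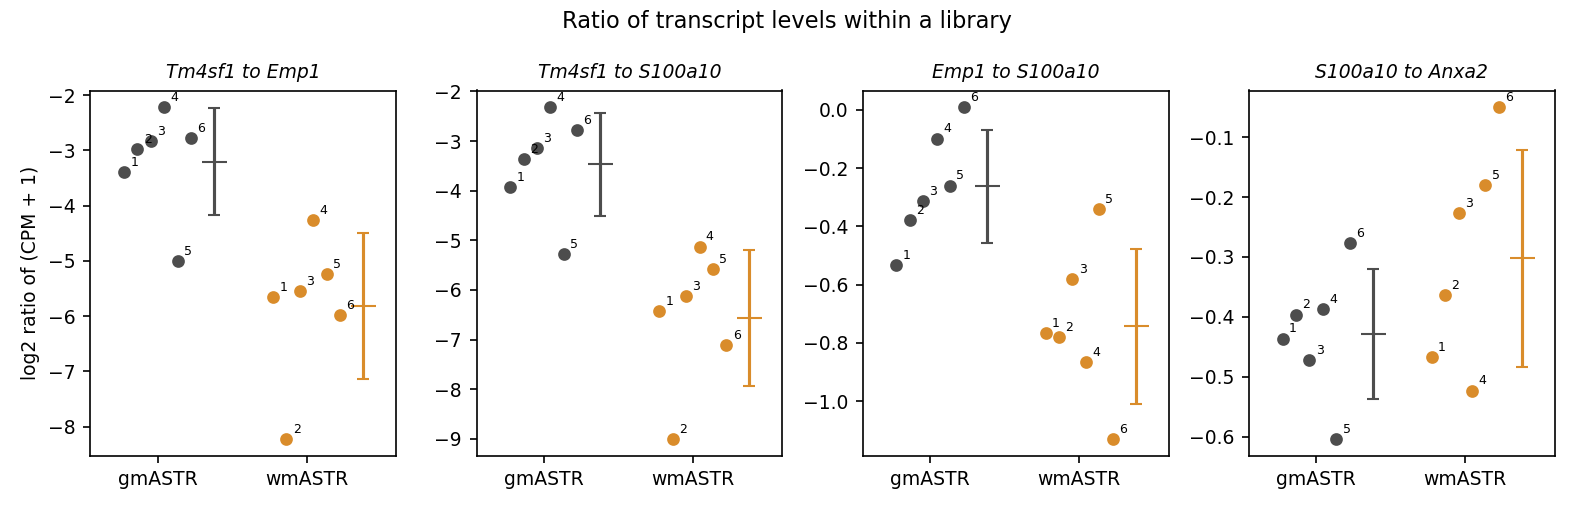
Ratio of transcript levels of gene pairs within a library, as log2 of (CPM + 1) of the first gene over that of the second (vertical axis), for 6 gmASTR and 6 wmASTR libraries. Points are libraries with their replicate number and whiskers are mean ± SD, and the first 3 ratios are shifted between the groups by 2.62, 3.10 and 0.48, whereas *S100a10* to *Anxa2* is shifted by -0.13.

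The protein of *S100a10* is bound by annexin A2. *Anxa2* had 1497 ± 80.4 CPM in gmASTRs, compared with 872 ± 65.9 CPM in wmASTRs (log2FC 0.72, SE 0.083, edgeR quasi-likelihood FDR = 4.21e-05), so that both partners were higher in gmASTRs, although *Anxa2* could be named only through a list that favoured such genes. The log2 ratio of *S100a10* to *Anxa2*, a comparison that was added after the values had been seen, was -0.43 ± 0.11 in gmASTRs and -0.30 ± 0.18 in wmASTRs. This shift of -0.13 lay within the spread between libraries (two-sided exact permutation test, n = 6 and 6, p = 0.177), and omitting any single library left it between -0.17 and -0.076. Whether reads from near-identical gene copies entered these counts was not tested.

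A gene could be named here mainly if it stood high in the study's list ordered by fold change towards gmASTRs, or among the genes with a large difference towards wmASTRs. The direction of a relative named in that way is therefore set by the list and is no result. Of the 3 other members of the *Emp1* family that were looked for, *Emp2* could be named and had 1573 ± 311 CPM in gmASTRs, compared with 931 ± 315 CPM in wmASTRs (log2FC 0.70, SE 0.21, edgeR quasi-likelihood FDR = 0.0345), and after omission of a single library its FDR stayed under 0.05 in 5 of 12 cases, with a highest FDR of 0.0761 without wmASTR replicate 1. Of 4 relatives of *Tm4sf1*, *Tm4sf4* could be named. Its log2FC was 0.68 (SE 0.75, edgeR quasi-likelihood FDR = 0.639). Of 9 genes of the S100 family, *S100a16* could be named (log2FC 0.52, SE 0.18, edgeR quasi-likelihood FDR = 0.0714). None of 6 genes related to *Ptx3* could be named.

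*Clcf1* belongs to the cytokines that signal through gp130, and 3 other genes of this system are given here. *Cntf*, which shares its receptor with the Clcf1 protein, was at 1.39 ± 1.04 CPM in gmASTRs, compared with 5.31 ± 2.78 CPM in wmASTRs (log2FC -1.98, SE 0.61, edgeR quasi-likelihood FDR = 0.0395). Omission of a single library kept *Cntf* under this threshold in 4 of 12 cases, and its highest FDR was 0.109, without wmASTR replicate 5. *Osmr*, the receptor of oncostatin M, was at 1.68 ± 1.68 CPM and 3.63 ± 1.16 CPM (log2FC -1.14, SE 0.67, edgeR quasi-likelihood FDR = 0.314). *Il11ra1*, the receptor chain of interleukin 11, was at 150 ± 55.8 CPM in gmASTRs, compared with 72.7 ± 13.3 CPM in wmASTRs (log2FC 0.97, SE 0.20, edgeR quasi-likelihood FDR = 0.00365).

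Of 8 other A2-specific genes, 5 had an identifier, which came from the study's own list of A2-specific genes and did not depend on their fold change. None was higher in gmASTRs and 1 was higher in wmASTRs (6.69% of all genes in the filtered table). The median log2FC of the 5 genes was -0.016, beside 0.021 for all genes tested. *Ptgs2*, the gene of cyclooxygenase 2, had 14.1, 22.9 and 34.8 CPM in the lowest, median and highest gmASTR library and 28.9, 34.1 and 67.8 CPM in wmASTRs, so that the libraries overlapped, with the 2 highest values in wmASTR replicates 4 and 6. Its log2FC was -0.90 (SE 0.26, edgeR quasi-likelihood FDR = 0.0299, but 0.0912 without wmASTR replicate 4). It also missed the threshold when gmASTR replicate 2, 4 or 6 or wmASTR replicate 6 was omitted. *Stat3*, the transcription factor downstream of gp130, had 449 ± 46.2 CPM in gmASTRs, compared with 491 ± 39.5 CPM in wmASTRs (log2FC -0.19, SE 0.096, edgeR quasi-likelihood FDR = 0.222). *Sphk1*, which makes sphingosine 1-phosphate, had 33.8 ± 12.6 and 31.1 ± 4.32 CPM, and the log2FC of 0.053 (edgeR quasi-likelihood FDR = 0.923) had a 95% interval from -0.42 to 0.52. *Cd109*, a surface protein that binds TGF-β, and *Cd14*, a co-receptor for lipopolysaccharide, were at or below 9.85 CPM in each library and did not pass the threshold (log2FC -0.016 and 0.19, SE 0.69 and 0.48). Thus the A2-specific genes called higher in gmASTRs were *Emp1*, *S100a10* and *Tm4sf1*, and the one called higher in wmASTRs was *Ptgs2*.

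**Figure D3:**
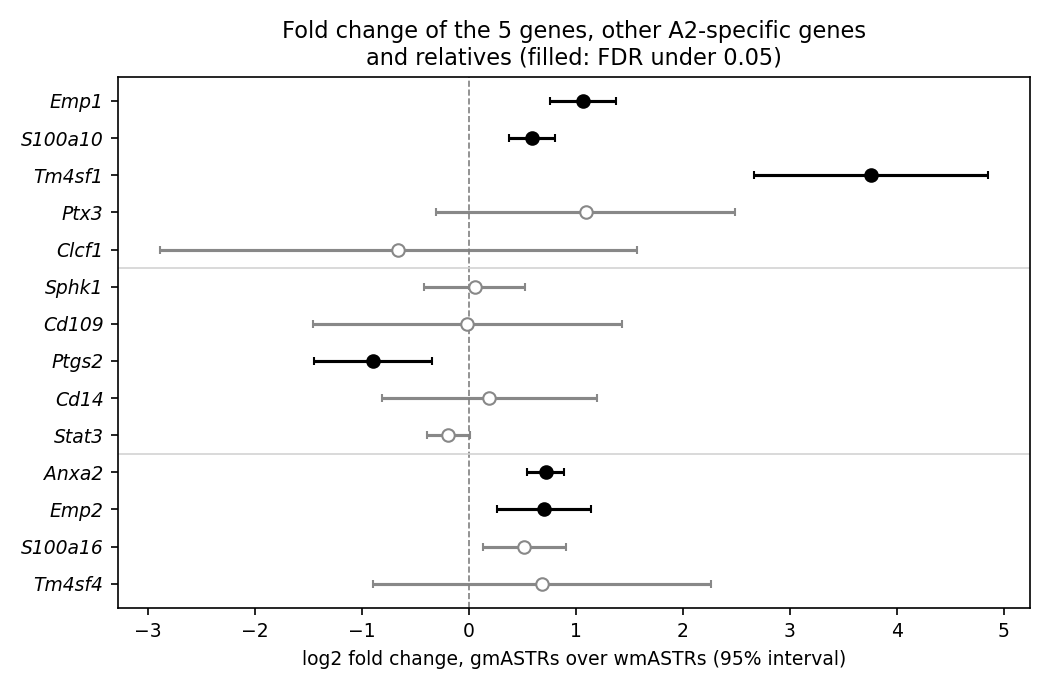
Log2FC of gmASTRs over wmASTRs (horizontal axis) with its 95% interval for the 5 genes (top), 5 other A2-specific genes (middle) and relatives or partners (bottom). Filled symbols have an FDR under 0.05, and *Tm4sf1* at 3.76, *Emp1* at 1.07 and *S100a10* at 0.59 lie above 0 while *Ptgs2* at -0.90 lies below.

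Within gmASTRs the libraries had much the same order for *Tm4sf1* and *Emp1*. Replicates 4 and 6 were the 2 highest for both, and replicates 3, 2, 1 and 5 followed in this order. For *S100a10*, replicate 6 was the highest and replicates 1 and 5 were the 2 lowest. In wmASTRs the order was not shared, as replicate 4 was the highest of 6 for *Tm4sf1* and the lowest for *Emp1* and *S100a10*. *Ptx3* and *Clcf1* did not follow the order in gmASTRs. The former was highest in replicate 5, and the latter had no count there.

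Markers of leptomeningeal cells, which cover the cortex, were also looked at. Of 13 such markers 9 had an identifier, 8 of them from lists ordered or chosen by fold change, and of the 9 genes 4 were higher in gmASTRs and 2, *Mgp* and *Ptgds*, in wmASTRs, where the filtered table as a whole had 5.64% and 6.69%. *Ptgds* is outside that table and was tested among the 15478 genes, with 4.28% called towards wmASTRs. After omission of a single library *Foxc2*, one of the 4, stayed under the threshold in 5 of 12 cases (highest FDR 0.1005, without gmASTR replicate 6) and *Ptgds* in 10 of 12 (highest FDR 0.106, without wmASTR replicate 1). The 9 markers summed to 988 to 6042 CPM (median 3711) in gmASTRs and to 1313 to 2713 CPM (median 1772) in wmASTRs. *Mgp* made up most of the wmASTR sum. Without it, in a sum added after the values had been seen, the 8 other markers came to 650 to 5471 CPM (median 3302) in gmASTRs and to 296 to 720 CPM (median 407) in wmASTRs. This sum was higher in gmASTRs along with *Tm4sf1*, *Emp1* and *S100a10*, except that gmASTR replicate 5 lay within the wmASTR range. It rested mainly on *Cldn11* and *Cdh1* (means of 1842 and 886 CPM in gmASTRs), numbers 1 and 2 of the 9394 genes by log2FC. Of the other markers, *Ptgds* went the other way, and *Crabp2*, *Aldh1a2* and *Igf2* did not pass the threshold. The direction of the sum is thus partly set by the lists and is no result. *Ptgds* had no count in 2 gmASTR libraries, and the other 8 markers were counted in every library. Within gmASTRs the 6 libraries had the same order for *Tm4sf1* as for the sum of these markers, from replicate 4 with 223 CPM of *Tm4sf1* beside 6042 CPM of markers to replicate 5 with 22.4 CPM beside 988 CPM. Replicate 5, with the lowest sum of the 9 markers, was at 650 CPM without *Mgp*, which is above 5 of the 6 wmASTR libraries and below wmASTR replicate 3 at 720 CPM. For *Tm4sf1*, *Emp1* and *S100a10* it lay above every wmASTR library. The marker *Cldn11*, the gene of claudin 11, was at 112 CPM in replicate 5, against at most 79.4 CPM in a wmASTR library. The marker *Cdh1* was at 87.3 CPM in gmASTR replicate 5, which is below wmASTR replicate 3 at 114 CPM.

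**Figure D4:**
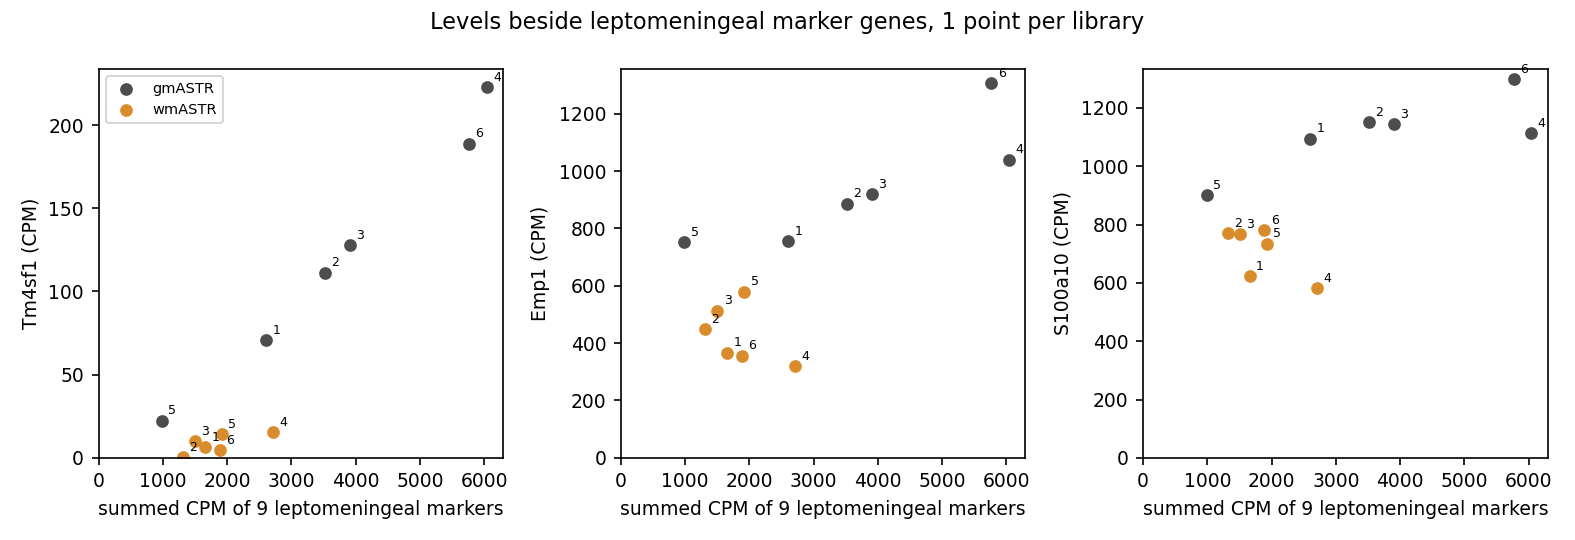
Level of *Tm4sf1*, *Emp1* and *S100a10* (CPM, vertical axes) beside the summed CPM of 9 leptomeningeal markers (horizontal axes), with 1 point and replicate number per library. The *Tm4sf1* level follows the marker sum in gmASTRs, from 22.4 to 223 CPM, and the order of *Emp1* there differs only in replicates 4 and 6. In wmASTRs *Tm4sf1* lies between 0.499 and 15.7 CPM, and replicate 4 is the highest and replicate 2 the lowest for both *Tm4sf1* and the sum.

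Endothelial cells are known to carry *Tm4sf1*. Of 11 markers of these cells 3 had an identifier (*Tek*, *Egfl7* and *Esam*), and their sum was 7.92 to 28.2 CPM in gmASTRs and 29.1 to 315 CPM in wmASTRs. Of 9 microglial markers 2 had an identifier, with a sum of 2.90 to 47.6 CPM in gmASTRs and 71.5 to 230 CPM in wmASTRs. Those of pericytes and smooth muscle cells (2 of 8) summed to 29.2 to 172 CPM and to 376 to 943 CPM, respectively. For these 3 cell types the sums did not overlap between the groups. However, 2 of the 3 endothelial markers and both markers of each other type were named through lists ordered or chosen by fold change, so the direction of these sums is partly set by the lists and is no result. The endothelial sum rested on *Esam*, with 8.87 ± 3.55 CPM in gmASTRs, compared with 107 ± 119 CPM in wmASTRs, whereas *Tek* (log2FC 0.69) and *Egfl7* (log2FC -0.46) did not pass the threshold (edgeR quasi-likelihood FDR = 0.736 and 0.601). The part of other cell types in the differences of the 3 genes was not tested beyond these values.

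To find the genes whose pattern was most like that of the 3 genes, Pearson's correlation of log2(CPM + 1) over the 12 libraries was taken across the 5350 genes with a mean of at least 20 CPM. As the libraries form 2 groups, r is also given after each group mean had been subtracted, and both are descriptions without a test. Most like *Tm4sf1* were *Sart3* (r = 0.97, and 0.89 with group means subtracted), *Ucp2* (0.96 and 0.87) and *Avpr1a* (0.96 and 0.89), which encode a splicing factor, a mitochondrial carrier and a vasopressin receptor. *Emp1* was followed most closely by *Gjb2* (0.97 and 0.87), the gene of connexin 26, by *Col9a2* (0.97 and 0.89), a chain of type IX collagen, and by *Sc5d* (0.97 and 0.85), an enzyme of cholesterol synthesis. For *S100a10* they were *Prrx2* (0.98 and 0.94), a homeobox transcription factor, *Sub1* (0.97 and 0.88), a transcriptional coactivator, and *Acss2* (0.97 and 0.84), which makes acetyl-CoA from acetate. None of the 3 genes was among the 3 closest genes of another.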

How the data were processed

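The authors made 3′ libraries, aligned the reads with HISAT (0.1.5, 2 mismatches allowed), used SAMtools (1.2) for sorting and obtained gene counts with HTSeq (0.6.1p1, not stranded, union mode). The genome build is not clear, as the methods name a rat genome and the submitters' processing notes list GRCm38, so no gene coordinates of the files are given. The deposited values are raw counts per gene, for 17941 genes and for the 9394 genes kept by the authors' filter on low counts. All 12 columns were used and 0 columns were left out. Use of molecular identifiers is not given in the sources used here, so floors cover counting error only.

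From the deposited counts, CPM and fold changes were computed here. The groups were compared by edgeR's quasi-likelihood test (4.0.16, R 4.3.3) with TMM scaling, a prior count of 0.125 for fold changes, and P-values adjusted after Benjamini and Hochberg. *Clcf1* and other genes outside the filtered table were tested among the 15478 genes with at least 1 count. Exact permutation tests are two-sided over the 924 divisions of 12 libraries into 6 and 6, with a smallest p of 0.00216. Alternatives used DESeq2 (1.42.0), limma (3.58.1), other scaling, filters and pseudocounts, a block on the replicate number, and omission of single libraries. Ratios, correlations and figures used Python (3.11.15), numpy (2.4.6), pandas (2.3.3), scipy (1.17.1) and matplotlib (3.10.9). The count test was tested on simulated data.

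Names came from the study's gene sheets, in which 2005 are paired with an identifier and 85 could be matched through 12 values, and 6 columns could not be joined. In the sheet of A2-specific genes, the column headed *Emp1* holds the values of *Efemp1* and that headed *Tm4sf* those of *Tm4sf4*, so identifiers of *Emp1* and *Tm4sf1* were taken from a sheet that pairs identifier and name. The libraries are described as independent culture preparations, and each animal gave both kinds of culture. The genes named are the 5 genes, the members of the lists with an identifier, and the 3 most correlated named genes of each of the 5 genes with a mean of at least 20 CPM. Of the listed genes, 2 are not reported here. Members and lists were chosen with earlier results of these data known. Lists of markers were also set for choroid plexus (1 of 6 with an identifier, 0 to 3.98 CPM in gmASTRs and 4.65 to 376 CPM in wmASTRs), oligodendrocytes (3 of 7, 0 to 4.25 and 9.15 to 53.3 CPM), neurons (2 of 4, 14.9 to 34.5 and 13.1 to 39.4 CPM) and ependymal cells (0 of 4).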

Additional observations from a re-analysis of the deposited data

How the results depend on the processing

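The log2FC of the 5 genes and the 3 ratios among *Tm4sf1*, *Emp1* and *S100a10* kept their direction and their side of the threshold under each alternative tried, whereas the number of called genes among the 10 A2-specific genes of the study varied between 3 and 4. When single libraries were left out, log2FC values were 0.95 to 1.16 for *Emp1*, 0.54 to 0.62 for *S100a10*, 3.51 to 4.01 for *Tm4sf1*, 0.83 to 1.79 for *Ptx3* and -1.64 to -0.40 for *Clcf1*. Under the other scalings, tests and filters and the block it was 1.06 to 1.13, 0.58 to 0.65, 3.75 to 4.00, 1.08 to 1.86 and -1.85 to -0.58, with a highest FDR of 0.00766 for *Tm4sf1*, by limma. The log2 ratio shifted by 2.14 to 2.98 for *Tm4sf1* to *Emp1*, by 2.61 to 3.46 for *Tm4sf1* to *S100a10* and by 0.40 to 0.56 for *Emp1* to *S100a10* when single libraries were left out. With a pseudocount of 5 CPM in place of 1 CPM these shifts were 1.97, 2.45 and 0.48, and with 0.5 CPM they were 2.77, 3.25 and 0.48. The number of genes that differed was 883 to 1569 with a library left out, the highest without gmASTR replicate 5, and 970 to 1422 otherwise.

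Both groups carry replicate numbers 1 to 6, but the sources used here do not say what a number marks, and same-numbered libraries did not deviate together (correlations of -0.0188 to 0.00492). In a fit with a block on the replicate number, the log2FC was 1.07 for *Emp1* (edgeR FDR = 0.00147), 0.59 for *S100a10* (0.00318), 3.78 for *Tm4sf1* (0.00172), 1.61 for *Ptx3* (0.203) and -1.71 for *Clcf1* (0.650), and 970 genes differed. The 3 ratios of pairs then had the smallest p that 64 swaps can give (exact permutation, p = 0.03125). *Ptgs2* (FDR = 0.103), *Cntf* (FDR = 0.126) and the leptomeningeal marker *Foxc2* (FDR = 0.0512) did not pass the threshold in the edgeR fit with the block, whereas the leptomeningeal markers *Crabp2* (FDR = 0.0271) and *Aldh1a2* (FDR = 0.0370) did. *Ptx3* and *Clcf1* had at most 49 and 41 counts in a library, and the part of depth and of spread between libraries in their wide intervals was not tested.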

Other observations

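*Efemp1*, which encodes the extracellular matrix protein fibulin 3 and whose values stand under the name *Emp1* in a sheet of the study, was higher in gmASTRs, with a log2FC of 2.85 (SE 0.64, edgeR quasi-likelihood FDR = 0.00611). The log2FC of *Emp1* itself was 1.07, so the values under that name depend on which column is read. *Efemp1* was singled out after its values had been seen.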
